A study of Mus musculus with 22 samples.

Results

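The motile cilia genes described here were the 88 protein-coding genes, among 21793 in the count tables, whose symbol names a cilia and flagella associated protein (31 Cfap genes), a dynein heavy chain (15 Dnah genes), a dynein assembly factor (4 Dnaaf genes), a radial spoke protein (8 Rsph genes), a tektin (5 Tekt genes), a dynein regulatory complex protein (3 Drc genes) or an intraflagellar transport protein (14 Ift genes), plus Foxj1, Mcidas, Spef2, Ccdc17, Ccdc39, Ccdc40, Hydin and Tppp3. The rule also asked for Dnai symbols and found 0, since the annotation used writes the dynein intermediate chains otherwise. They were measured by RNA-seq in live CD45-EpCAM+ lung epithelial cells, which are cells that lack the leukocyte antigen CD45 and carry the epithelial antigen EpCAM, sorted from lungs digested with dispase. The results section of the authors also names CD31-, the lack of an endothelial antigen, for this sort. The mice were wildtype (WT), AhR-/- (labelled AhR-KO, without the aryl hydrocarbon receptor) or CYP1B1-/- (without a cytochrome P450 enzyme that this receptor induces). They were either naive, here called steady state (4 WT, 3 AhR-/- and 3 CYP1B1-/- libraries), or sensitized to and challenged with house dust mite extract given into the nose, here called HDM (4 libraries of each genotype). Values are given in the order of the replicate numbers, which are 1, 3 and 4 in AhR-/- and 2, 3 and 4 in CYP1B1-/- at steady state and 1 to 4 elsewhere. The labels give no age, and the states were sequenced and tabulated separately, so the effect of HDM and that of the run cannot be told apart.

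Motile cilia beat on multiciliated cells of the conducting airways and move mucus out of the lung. Their core, the axoneme, is a ring of microtubule doublets. Dynein arms are its motors, radial spokes and the nexin-dynein regulatory complex set the beat, tektins lie inside the doublets, and dynein assembly factors prepare the arms in the cytoplasm. Intraflagellar transport carries the parts along the cilium and is used as well by the non-motile primary cilium of many cell types. Mcidas and Foxj1 are transcription regulators that start the multiciliated programme, and factors of the RFX family act on many of the same genes through the X-box, an inverted repeat whose half-site is often written GTTGCC or GTTGCTA.

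The promoters of the members show what they share beyond their names. RefSeq promoter windows of 300 bases (250 before and 50 after the start, build GRCm38.p6) were at hand for 71 of the 88 members and for 27025 genes in all. GTTGCC, read on either strand, was in the window of 29 of the 71 members (40.8%) and of 14.1% of all genes. GTTGCTA was in 26 (36.6%) against 4.28%, and at least 1 of these half-sites was in 47 (66.2%) against 17.4%. For comparison with forkhead-type letters, TGTTTAC was in 5.63% of the members and 4.05% of all genes and TGTTTGC was in 5.63% and 5.76%. CCAAT was in 45.1% and 41.1%. These are matches of letters and not measured binding sites. Stretches before the start are given for 4 members that changed in a comparison below (Cfap161, Cfap36, Ift140 and Tekt5) and for a dynein heavy chain and Hydin, which changed in none. Only members with a half-site before the start were eligible, so that every stretch holds a half-site by choice. Capitals mark a half-site on either strand, and each line reads 5′ to 3′ along the strand of the gene.
Cfap161: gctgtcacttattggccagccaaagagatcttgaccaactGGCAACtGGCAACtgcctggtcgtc
Cfap36: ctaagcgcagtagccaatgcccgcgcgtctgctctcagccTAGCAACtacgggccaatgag
Ift140: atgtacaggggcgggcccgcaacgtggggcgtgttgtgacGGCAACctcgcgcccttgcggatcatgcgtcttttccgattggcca
Tekt5: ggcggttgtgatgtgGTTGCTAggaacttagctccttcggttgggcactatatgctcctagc
Dnah5: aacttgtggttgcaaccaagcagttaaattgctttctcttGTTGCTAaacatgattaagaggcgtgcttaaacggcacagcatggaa
Hydin: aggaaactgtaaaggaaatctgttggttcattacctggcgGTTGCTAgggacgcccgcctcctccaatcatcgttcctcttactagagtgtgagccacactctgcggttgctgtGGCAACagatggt
The stretches lie at chr7:83794881-83794945 (minus strand) for Cfap161, chr11:29247410-29247470 (minus strand) for Cfap36, chr17:25015937-25016022 (plus strand) for Ift140, chr16:10395644-10395705 (minus strand) for Tekt5, chr15:28203618-28203704 (plus strand) for Dnah5 and chr8:110266850-110266976 (plus strand) for Hydin. The first half-site of each stretch begins 66, 158, 109, 235, 108 and 87 bases before the RefSeq start in the same order. Of the 25 members that passed the test in at least 1 comparison, 19 had a window and 15 of these held a half-site.

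The libraries held between 9654825 and 17878442 counts. A predicted gene, Gm10800, took 0.00819% to 71.9% of them after HDM and 9.54% to 29.2% at steady state, and a count of 3 corresponded to 0.107 to 1.36 and 0.138 to 0.213 CPM, which are counts scaled to a common library size. Y-linked Ddx3y was counted in all 10 steady-state libraries and, after HDM, at over 10 CPM only in AhR-/- replicates 3 and 4. In WT and CYP1B1-/- Y-linked reads thus split fully with the state. The targeted genes did not check the labels: Ahr was at 15.5 to 20.1 CPM at steady state where the label was AhR-/- and 6.38 to 12.3 in WT, and Cyp1b1 at 3.62 to 5.89 where it was CYP1B1-/- and 0.644 to 1.91 in WT. Genotypes below are therefore those of the labels. Summed CPM of 24 hematopoietic markers reached 4703 to 15069.5 in WT, 727 to 4217 in AhR-/- and 1669 to 14328 in CYP1B1-/- after HDM, against 332 to 776 at steady state. In sorted bulk RNA, fewer multiciliated cells and less RNA per cell cannot be told apart.

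Most motile cilia genes were counted at low levels in these cells. Levels between genes are compared here as CPM per kilobase of exon, averaged over the 22 libraries. Olfactory receptor genes, which have no established use in lung epithelium, served as a reference level chosen after the data were seen: 1134 of them averaged 0.219 CPM per kilobase, and the 95th percentile of their means was 0.484. Of the 88 members 52 lay above this percentile and 36 at or below it, and 0 members were without counts in every library. The 14 intraflagellar transport genes all lay above it, from Ift80 at 1.45 to Ift20, a small subunit of the transport train, at 18.6. All 15 dynein heavy chains, the motor subunits, lay at or below it, from Dnah7b at 0.108 to Dnah12 at 0.402. This ranking depends on the division by length: their median exon length was 14968 bases, against 4118 for the intraflagellar transport genes. Undivided, they averaged from 2.15 CPM (Dnah7b) to 4.85 CPM (Dnah5). Foxj1, which lay above the percentile, averaged 1.73 CPM, and the lowest intraflagellar transport gene, Ift57, averaged 7.87 CPM. Whether these libraries cover long transcripts evenly was not tested.

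**Figure D1:**
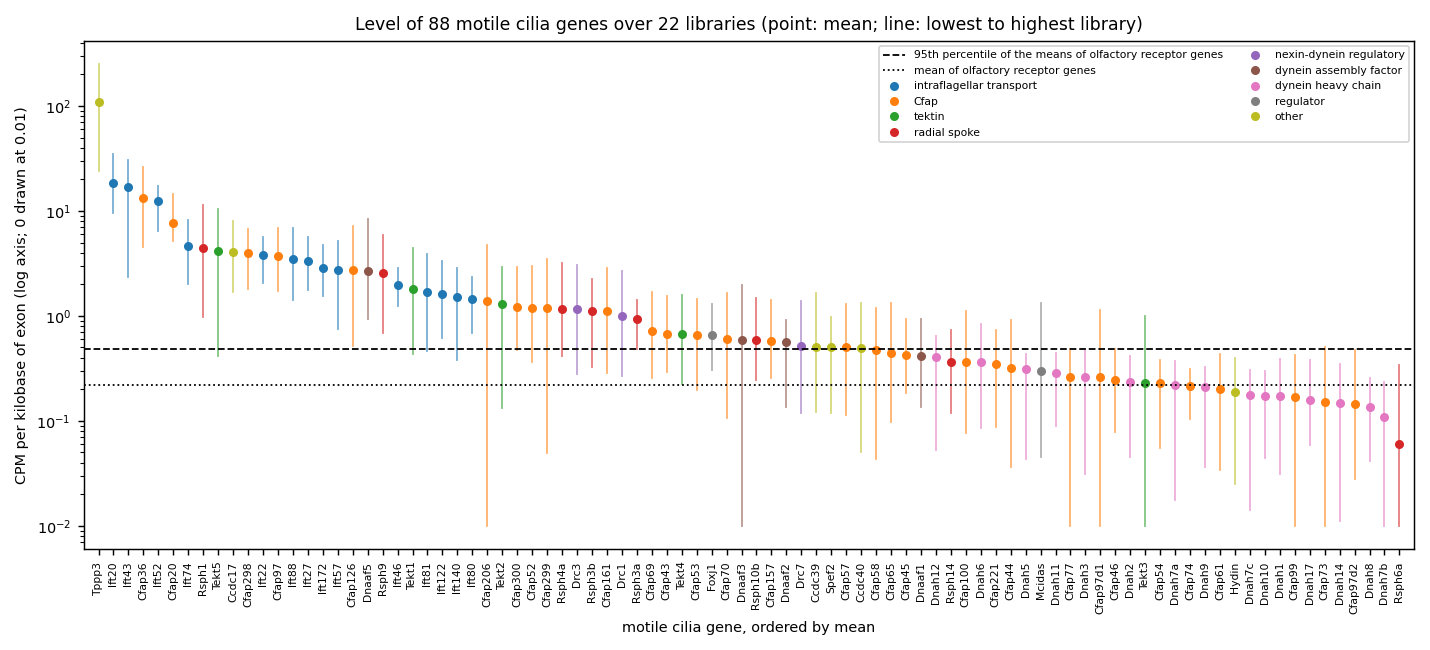
Mean CPM per kilobase of exon (log axis) of the 88 motile cilia genes over 22 libraries, ordered by mean and coloured by role, with lines from the lowest to the highest library. The dashed line is the 95th percentile of olfactory receptor genes at 0.484 and the dotted line their mean at 0.219, and libraries at 0 are drawn at the lower end of the lines. Tppp3 stands highest at 109 and the dynein heavy chains lie at or below the dashed line.

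Among the other groups, the Cfap genes ranged from Cfap97d2 at 0.145 CPM per kilobase to Cfap36 at 13.4, with 16 of 31 above the percentile. The radial spoke genes ranged from Rsph6a at 0.0606 to Rsph1, a spoke head protein, at 4.39, with 6 of 8 above. The tektins ranged from Tekt3 at 0.231 to Tekt5 at 4.13, with 4 of 5 above. All 3 Drc genes lay above, from Drc7 at 0.519 to Drc3 at 1.15. Of the assembly factors 3 of 4 did, Dnaaf1 at 0.417 being the lowest and Dnaaf5 at 2.69 the highest. The highest member of all was Tppp3, a tubulin-binding protein, at 109, and the lowest of the genes named singly was Hydin, a central apparatus protein, at 0.19.

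The reference level itself varied between libraries, from 0.0195 CPM per kilobase in AhR-/- HDM replicate 1 to 0.388 in CYP1B1-/- HDM replicate 1. Counted against the 95th percentile of the same library, 26 members stood above it in WT steady state replicate 1 and 80 of 88 in AhR-/- HDM replicate 1. The other libraries with over 60 members above were WT steady state replicate 4 (67), WT HDM replicate 1 (69), AhR-/- HDM replicate 2 (62) and CYP1B1-/- HDM replicate 4 (76). The pooled level of the dynein heavy chains, their summed CPM over their summed exon length, was lowest of all 22 libraries in WT HDM replicates 1 and 3, at 0.0563 and 0.112 CPM per kilobase, against 0.284 and 0.260 in WT HDM replicates 2 and 4. In the same order the reference stood at 0.0368, 0.106, 0.344 and 0.257, so the dynein level moved with it among the 4 WT HDM libraries. In AhR-/- HDM replicate 1 both the reference, at 0.0195, and the dynein level, at 0.173, were the lowest of the group. In CYP1B1-/- HDM replicate 4 the reference was the lowest of the group, at 0.0791, while the dynein level was 0.255, above the 0.165 of replicate 3. The part of that background in the dynein values was not tested.

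Foxj1 was near 1 CPM in most libraries. At steady state it stood at 1.19, 0.802, 1.22 and 3.41 CPM in WT, 1.02, 1.09 and 0.861 in AhR-/- and 1.35, 2.13 and 1.89 in CYP1B1-/-. After HDM it stood at 1.52, 1.78, 1.07 and 1.09 CPM in WT, 2.29, 3.26, 0.91 and 1.06 in AhR-/- and 3.43, 2.59, 0.906 and 3.1 in CYP1B1-/-. The 3 highest values were in WT steady state replicate 4, in CYP1B1-/- HDM replicate 1 and AhR-/- HDM replicate 2, and both knockout groups overlapped with WT in each state. The difference from WT after HDM was 0.53 (SE 0.57, adjusted p = 0.535) on the log2 scale in AhR-/- and 0.95 (SE 0.57, adjusted p = 0.999) in CYP1B1-/-. These levels rested on 2 to 74 counts a library.

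Mcidas, which acts upstream of Foxj1, rested on 2 to 16 counts a library. It stood at 0.537, 0.679, 0.61 and 0.644 CPM in WT, 0.359, 0.804 and 0.369 in AhR-/- and 1.13, 0.558 and 0.412 in CYP1B1-/- at steady state. After HDM it stood at 0.359, 1.01, 0.304 and 0.641 CPM in WT, 0.107, 0.859, 1.36 and 0.53 in AhR-/- and 0.721, 3.17, 0.302 and 0.234 in CYP1B1-/-. All groups overlapped, and Mcidas fell short of the filter on low counts after HDM and has no test there.

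Cells of the labelled type were checked by their markers. Epcam was at 86.2 to 287 CPM at steady state and 68.2 to 312 after HDM. Ptprc, which encodes CD45, was at 2.02 to 52.6 and 14.8 to 669, although the gate was CD45-. Summed CPM of 10 alveolar type 1 markers was 25030.5 to 34041 at steady state, while the other motile cilia genes described further below (50 genes) summed to 144 to 393. Ager, which marks alveolar type 1 cells, was at 259.9 to 17157 CPM over all libraries, and Foxj1, which marks multiciliated cells, at 0.802 to 3.43.

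After HDM, 9 motile cilia genes were higher and 1 was lower in the libraries labelled AhR-/- than in WT. Of the 88 members 80 passed the filter on low counts. The 10 that passed the test (adjusted p at most 0.05 in edgeR's quasi-likelihood test, adjusted over all 14161 genes tested) were 12.5% of them, against 22.1% of all genes, a lower share for the members. By direction, 11.2% of the members were called higher against 9.22% of all genes, and 1.25% lower against 12.9%. The median difference of the members was 0.62 on the log2 scale, against 0.00 for all genes, and 67 of 80 members were above 0. With the replicate number as a block, 0 members and 0.00706% of all genes were called and the median was 0.63. All 10 lay above the olfactory receptor percentile.

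Of the 14 intraflagellar transport genes 3 were higher and 1 was lower. Ift43, a subunit of the retrograde IFT-A complex, was at 14.04, 10.7, 8.67 and 3.85 CPM in WT, 45.3, 19.2, 50.5 and 39.6 in AhR-/- and 9.2, 20.7, 7.25 and 17.3 in CYP1B1-/- after HDM. Every AhR-/- library exceeded every WT library, and the difference was 2.08 (SE 0.45, adjusted p = 0.0261) on the log2 scale. Ift81, which with Ift74 binds tubulin in the anterograde IFT-B complex, was at 5.2, 6.09, 3.8 and 2.69 CPM in WT, 22.6, 13.4, 12.3 and 10.1 in AhR-/- and 5.77, 11.2, 3.07 and 10.1 in CYP1B1-/-. Again the AhR-/- and WT libraries did not overlap, and the difference was 1.73 (SE 0.43, adjusted p = 0.0267). Ift74 was at 6.19, 6.6, 5.33 and 5.32 CPM in WT, 21.96, 13.9, 10.01 and 9.72 in AhR-/- and 7.57, 6.92, 6.29 and 16.99 in CYP1B1-/-, with AhR-/- replicate 1 highest and all 4 AhR-/- libraries above WT, and a difference of 1.24 (SE 0.33, adjusted p = 0.0289).

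Ift140, another IFT-A subunit, went the other way. It stood at 17.6, 10.7, 19.02 and 15.8 CPM in WT, 5.77, 8.07, 3.18 and 6.72 in AhR-/- and 9.92, 5.48, 23.7 and 16.4 in CYP1B1-/- after HDM, so that the AhR-/- libraries all lay below the WT libraries, while CYP1B1-/- spanned both ranges. The difference between AhR-/- and WT was -1.37 (SE 0.34, adjusted p = 0.0267) on the log2 scale. At steady state Ift140 stood at 13.3, 11.98, 11.4 and 16.01 CPM in WT, 11.2, 12.6 and 13.5 in AhR-/- and 14.7, 14.8 and 13.6 in CYP1B1-/-, where both knockout groups lay within or overlapped with the WT range.

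4 of the 26 tested Cfap genes were higher. Cfap161, a protein of the doublet lumen, was at 0.987, 1.01, 0.913 and 1.6 CPM in WT, 7.17, 5.5, 4.55 and 3.89 in AhR-/- and 4.69, 5.19, 1.06 and 9.14 in CYP1B1-/- after HDM. Every AhR-/- library lay above every WT library, and CYP1B1-/- replicate 3 alone among its group lay within the WT range. The difference from WT was 2.17 (SE 0.56, adjusted p = 0.0275) on the log2 scale. Cfap36 was at 22.7, 19.3, 20.7 and 13.5 CPM in WT, 40.7, 28.6, 40.04 and 26.2 in AhR-/- and 12.4, 19.6, 19.7 and 28.3 in CYP1B1-/-, again without overlap between AhR-/- and WT, and differed by 0.83 (SE 0.23, adjusted p = 0.0298). Cfap299 was higher by 2.54 (SE 0.68, adjusted p = 0.0285), on 2 to 12 counts in the WT libraries and 5 to 140 in AhR-/-, and 19.1% of its exon length overlaps a transcript model on the same strand. Cfap126, which helps to place basal bodies, was higher by 1.17 (SE 0.38, adjusted p = 0.0465) with overlapping libraries.

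Of the 3 dynein regulatory complex genes, Drc3 was higher. It stood at 2.06, 1.27, 1.67 and 2.56 CPM in WT, 13.5, 6.87, 4.55 and 3.18 in AhR-/- and 5.95, 6.92, 1.66 and 13.8 in CYP1B1-/- after HDM, with AhR-/- and WT apart, and differed by 1.85 (SE 0.58, adjusted p = 0.0413) on the log2 scale. Ccdc17, a coiled-coil protein expressed with motile cilia, stood at 6.86, 5.07, 4.72 and 4.49 CPM in WT, 13.7, 12.5, 5.91 and 12.4 in AhR-/- and 8.3, 11.8, 5.84 and 20.9 in CYP1B1-/-. AhR-/- replicate 3 lay below WT replicate 1, and the difference was 1.09 (SE 0.35, adjusted p = 0.0429). 33.1% of the exon length of Ccdc17 overlaps C530005A16Rik on the other strand, and these libraries do not mark strand, so their reads cannot be told apart.

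No radial spoke gene, tektin, assembly factor or dynein heavy chain passed the test in this comparison. The medians were 1.06 for 7 radial spoke genes, 1.32 for 4 tektins, -0.49 for 4 assembly factors and 0.13 for 15 dynein heavy chains. 23 members reached an unadjusted p under 0.05 (28.7%, against 38.8% of all genes), 22 of them higher. Among those outside the threshold were Dnaaf1 at 1.70 (adjusted p = 0.0666), Rsph1 at 1.35 (adjusted p = 0.103) and Tppp3 at 0.90 (adjusted p = 0.0729). 15 members had all AhR-/- libraries above all WT libraries and 1 had all below, and the shares of all genes with such separation were 9.6% and 9.91%. With each comparison's own normalisation factors, 14 were above and 1 below.

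**Figure D2:**
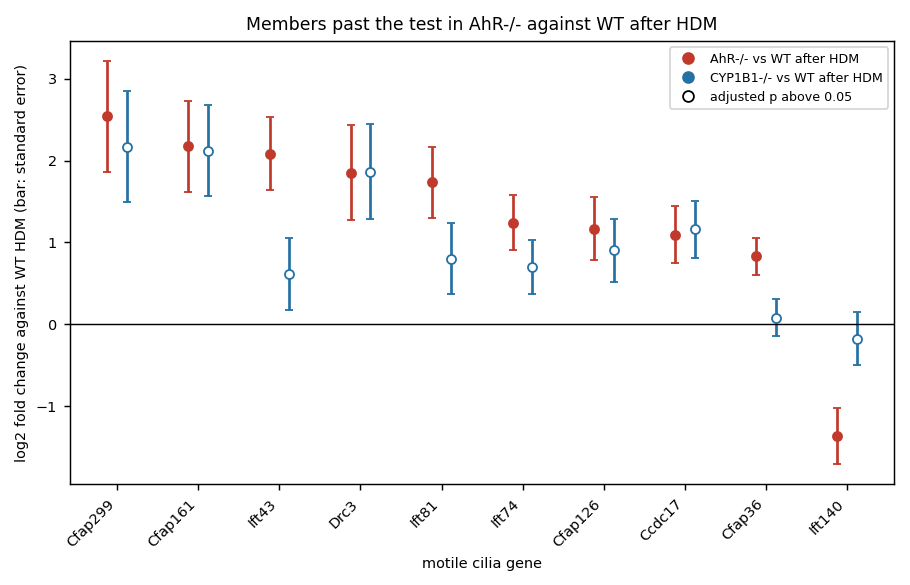
Log2 fold change with its standard error for the 10 motile cilia genes that passed the test in AhR-/- against WT after HDM, with the same genes in CYP1B1-/- against WT beside them. Filled points have an adjusted p of at most 0.05. The CYP1B1-/- values of Cfap161, Drc3 and Ccdc17 lie close to those of AhR-/-, while those of Ift43, Cfap36 and Ift140 lie nearer to 0; both comparisons share the WT libraries.

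Whether these members passed depended on single libraries, while each of the 10 kept its direction in the 21 to 23 alternatives run for it. The median of the members lay between 0.45 and 0.89 with 1 library left out, and the difference of Ift43 between 1.78 and 2.50 over 23 alternatives. Without WT HDM replicate 3 or 4, or without AhR-/- HDM replicate 1, 3 or 4, 0 members and 0% of all genes were called, and without WT HDM replicate 1 it was 1 member and 6.13% of all genes. Without the 2 AhR-/- libraries with Y-linked reads 0 members were called and the median was 0.77. Cell type markers moved with this comparison: 7 of 23 tested hematopoietic markers were lower, 3 of 10 alveolar type 1 markers, 2 of 10 club cell markers and 4 of 7 neuroendocrine markers were higher, and the medians were -1.76, 1.99, 2.23 and 1.94. Of the basal cell markers 2 of 5 were lower (median -0.15), and of the goblet cell markers 1 of 7 was higher (median 1.34). Mesenchymal, endothelial and alveolar type 2 markers had 0 past the test, with medians of 1.21, 0.97 and 0.40. Of all genes 9.22% were higher and 12.9% lower. The part of all these cell types in the members' differences was not tested.

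In the libraries labelled CYP1B1-/-, 0 of 80 members passed the test against WT after HDM, and the same held for 0% of all genes. DESeq2, the likelihood ratio test and limma voom also called 0 members. The members nevertheless leaned upward: 75 of 80 were above 0, their median was 0.65 against -0.01 for all genes, and 17 had an unadjusted p under 0.05, all of them higher, which is 21.2% against 1.65% of all genes. The members of lowest p were Cfap161 at 2.12 (SE 0.56, unadjusted p = 0.00223, adjusted p = 0.999), Ift57, an IFT-B subunit, at 0.92 (SE 0.27, unadjusted p = 0.00458, adjusted p = 0.999), and Ccdc17 at 1.16 (SE 0.35, unadjusted p = 0.00559, adjusted p = 0.999), all on the log2 scale. Ift57 was at 7.49, 4.31, 6.09 and 4.36 CPM in WT, 9.64, 11.8, 5.46 and 5.12 in AhR-/- and 6.85, 10.95, 12.3 and 11.01 in CYP1B1-/-. Markers of several other cell types leaned the same way, with 0 past the test: 3 of 7 neuroendocrine markers and 4 of 9 mesenchymal markers had an unadjusted p under 0.05, and the medians were 1.59 and 1.28. The medians were 0.92 for club cell, 0.78 for alveolar type 2, 0.60 for basal cell, 0.57 for endothelial and 0.40 for goblet cell markers, and -0.27 for alveolar type 1 and -0.49 for hematopoietic markers. Their part in the members' differences was not tested.

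The spread within CYP1B1-/- HDM was wide. Spef2, a central apparatus protein, stood at 1.17, 3.81, 1.83 and 3.85 CPM in WT, 5.84, 3.86, 3.64 and 4.59 in AhR-/- and 5.05, 4.03, 2.82 and 9.61 in CYP1B1-/- after HDM. Ccdc39, which sets the spacing of the inner dynein arms, stood at 1.08, 2.54, 0.913 and 1.67 CPM in WT, 7.38, 5.58, 0.91 and 3.53 in AhR-/- and 2.52, 3.75, 1.41 and 12.2 in CYP1B1-/-, and Ccdc40, its partner, at 0.628, 2.28, 0.304 and 3.08 CPM in WT, 2.97, 3.52, 2.27 and 3.00 in AhR-/- and 3.07, 4.32, 1.16 and 6.62 in CYP1B1-/-. In all 3 genes CYP1B1-/- replicate 4 was the highest of the 12 HDM libraries, WT replicate 1 or 3 was the lowest or within the lowest 2, and the groups overlapped. 16.9% of the exon length of Ccdc39 overlaps Ttc14 on the other strand.

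Hydin stood at 0.448, 6.6, 0.913 and 5.00 CPM in WT, 3.44, 3.18, 5.46 and 3.00 in AhR-/- and 5.41, 7.2, 2.52 and 3.81 in CYP1B1-/- after HDM, and the low values were those of WT replicates 1 and 3, the libraries with the lowest olfactory receptor level in WT. Cfap53 and Dnaaf5 had every CYP1B1-/- library above every WT library, as 0.424% of all genes did. With the normalisation factors of this comparison alone these members were 3, Cfap53, Ift57 and Ift88. Leaving out 1 library at a time kept the median between 0.41 and 0.92.

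At steady state, 0 of 82 members passed the test in AhR-/- against WT (0% of all genes) and 0 of 82 in CYP1B1-/- against WT (0.0129% of all genes). DESeq2, limma voom and the likelihood ratio test also called 0 members in both. In AhR-/-, 72 of 82 members were below 0 with a median of -0.25, and 3 had an unadjusted p under 0.05, all lower (3.66%, against 1.69% of all genes). These were Cfap74 at -1.04 (SE 0.30, unadjusted p = 0.00496, adjusted p = 1), Cfap69 at -0.87 (SE 0.29, unadjusted p = 0.0114, adjusted p = 1) and Cfap65 at -0.80 (SE 0.31, unadjusted p = 0.025, adjusted p = 1). Cfap74 and Cfap65 lie at or below the olfactory receptor percentile. In 6 members every AhR-/- library lay below every WT library, as in 1.46% of all genes. Without WT replicate 4 the median was -0.09. Hematopoietic markers (median -1.76, 3 of 21 with an unadjusted p under 0.05) and endothelial markers (median -1.06, 3 of 8) were also low, with 0 past the test. The medians of the other marker lists lay between -0.61 for basal cell and 0.24 for club cell markers, and the part of these cells in the members' values was not tested.

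In CYP1B1-/- the median was -0.14, 57 of 82 members were below 0, and 4 had an unadjusted p under 0.05, all lower (4.88%, against 5.8% of all genes). The lowest p was that of Spef2, at 7.4, 6.85, 8.4 and 6.81 CPM in WT, 7.19, 5.75 and 5.41 in AhR-/- and 3.4, 3.14 and 6.25 in CYP1B1-/-. The 3 CYP1B1-/- libraries lay below all WT libraries, by 0.86 (SE 0.26, unadjusted p = 0.00661, adjusted p = 0.822) on the log2 scale. The dynein heavy chains Dnah7c and Dnah12 followed at -0.91 and -0.65. Without WT replicate 4 the median was 0.05. Hematopoietic markers had a median of -1.71 (6 of 21 with an unadjusted p under 0.05), basal cell markers of -1.12 (2 of 3), alveolar type 2 markers of -0.84 (1 of 11), endothelial markers of -0.82 and neuroendocrine markers of -0.45 (1 of 8), with 0 past the test. The other lists lay between -0.13 for goblet cell and 0.34 for club cell markers, and the part of these cells was not tested. WT replicate 4 was the highest of the WT libraries in Foxj1, Ccdc17, Ccdc39, Ccdc40, Hydin and Tppp3. Ccdc39 stood at 2.27, 2.96, 3.25 and 7.41 CPM in WT, 5.03, 3.45 and 2.95 in AhR-/- and 1.91, 4.66 and 5.83 in CYP1B1-/- and Ccdc40 at 2.09, 2.53, 2.64 and 7.96 CPM in WT, 2.28, 3.16 and 2.4 in AhR-/- and 1.49, 3.7 and 4.83 in CYP1B1-/-.

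**Figure D3:**
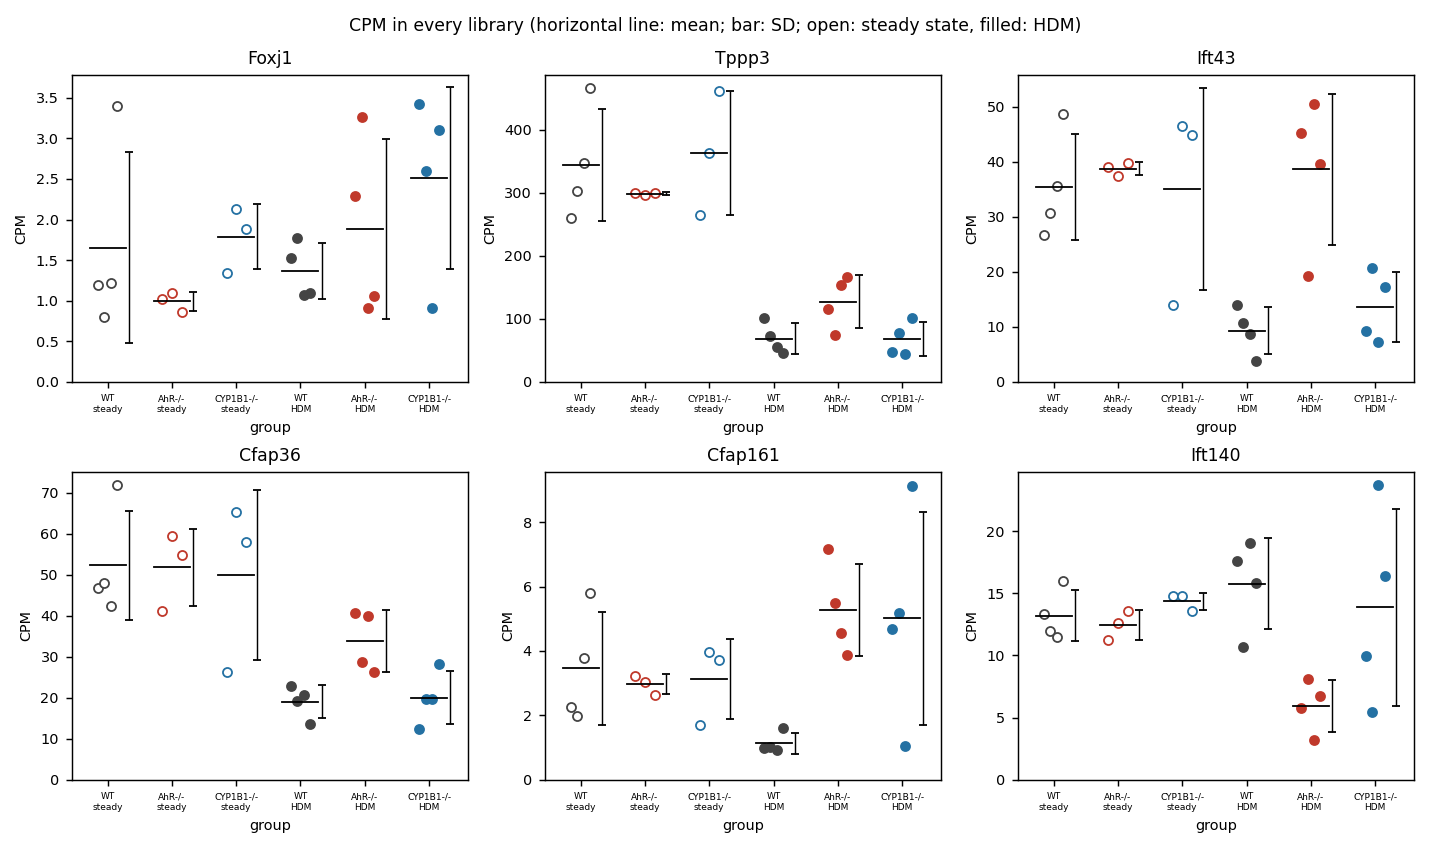
CPM of Foxj1, Tppp3, Ift43, Cfap36, Cfap161 and Ift140 in each of the 22 libraries, by group, with the group mean (line) and SD (bar). Tppp3 is lower in every HDM library than in every steady-state library, Ift43 and Cfap161 are low in the 4 WT HDM libraries, and Ift140 is low in the 4 AhR-/- HDM libraries. The CYP1B1-/- HDM group reaches as low in Ift43, Cfap161 and Ift140.

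Between HDM and steady state in WT, 21 members were lower and 1 was higher. These 22 were 26.5% of the 83 members tested, below the 38.4% of all 16639 genes. By direction, 25.3% of the members were lower against 19.4% of all genes, and 1.2% higher against 19% of all genes. The median was -0.76 against -0.11 for all genes, and 73 of 83 members were below 0. 20 members had all HDM libraries below all steady-state libraries, which was so for 21.2% of all genes. 1 member, Dnah2, had all HDM libraries above, which was so for 17.7% of all genes. Ddx3y was at 70.7 to 80.2 CPM in the WT libraries at steady state and at 0 in all 4 after HDM, so state and the sex of the animals cannot be told apart in WT.

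Tekt5 and Tppp3 fell furthest of the members in WT and in CYP1B1-/-, while in AhR-/- Ift122 fell further, by 1.65 (SE 0.31, adjusted p = 0.00125) on the log2 scale. Tppp3 stood at 259.7, 303, 348 and 466 CPM in WT, 299.8, 296 and 300.1 in AhR-/- and 265, 363 and 462 in CYP1B1-/- at steady state. After HDM it stood at 101, 72.1, 56.00 and 45.7 CPM in WT, 116, 73.7, 153 and 166 in AhR-/- and 47.8, 77.2, 44.2 and 101 in CYP1B1-/-. The states did not overlap in any genotype, and Tppp3 fell by 2.32 (SE 0.34, adjusted p = 2.17e-05) on the log2 scale in WT, by 1.23 (SE 0.35, adjusted p = 0.0167) in AhR-/- and by 2.43 (SE 0.36, adjusted p = 3.75e-05) in CYP1B1-/-. Its highest HDM values were in AhR-/- replicates 3 and 4, the 2 libraries with Y-linked reads. Tekt5 stood at 7.04, 10.6, 16.1 and 18.7 CPM in WT, 11.3, 14.5 and 13.2 in AhR-/- and 10.8, 12.98 and 13.4 in CYP1B1-/- at steady state. After HDM it stood at 3.14, 2.54, 1.67 and 0.769 CPM in WT, 3.69, 2.32, 5.91 and 8.66 in AhR-/- and 1.8, 1.73, 0.755 and 2.28 in CYP1B1-/-, without overlap between the states in any genotype. It fell by 2.70 (SE 0.44, adjusted p = 5.08e-05), 1.39 (SE 0.44, adjusted p = 0.0276) and 2.94 (SE 0.47, adjusted p = 6.42e-05) in the same order.

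Alveolar type 1 markers moved in the same comparisons. Of them 9 of 10 were lower in WT, 1 in AhR-/- and 10 in CYP1B1-/-, with medians of -2.79, -1.14 and -3.30, and 0 were at 0 in any group. Their summed CPM after HDM was 960.5 to 5819.7 in WT, 4788 to 23812 in AhR-/- and 686 to 5483 in CYP1B1-/-. Ager after HDM was at 3112, 3014, 1244 and 328 in WT, 6905, 2113, 10375 and 14492 in AhR-/- and 792, 2861, 259.9 and 2247 in CYP1B1-/-, and AhR-/- replicates 3 and 4 were highest, as they were for Tppp3. The part of these cells in the values of Tppp3 and Tekt5 was not tested. Alveolar type 2 markers were higher after HDM in 6 of 11 in WT (median 1.97), 9 in AhR-/- (median 3.07) and 10 in CYP1B1-/- (median 3.36). Goblet cell markers were higher in 5 of 8 in WT (median 2.12), 6 in AhR-/- (median 4.17) and 6 in CYP1B1-/- (median 2.43). Of 24 hematopoietic markers 19, 18 and 19 were higher and 0, 1 and 1 lower in the same order (medians 3.63, 4.00 and 4.72). Of all genes 19%, 10.6% and 15.5% were higher and 19.4%, 10.1% and 17.9% lower in WT, AhR-/- and CYP1B1-/-.

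Club cell markers had 1 of 10 higher and 3 lower in WT (median -1.08), 4 higher and 0 lower in AhR-/- (median 1.76) and 1 higher and 1 lower in CYP1B1-/- (median -0.13). Basal cell markers were higher in 2 of 6, 1 and 5 in the same order (medians 0.64, 1.25 and 3.64), with 0 lower. Mesenchymal markers were lower in 4 of 9 in WT (median -1.66), and 0 passed in the other genotypes (medians 0.04 and -0.58). Neuroendocrine markers were lower in 2 of 8 in WT (median -0.80), and higher in 3 in AhR-/- (median 1.15) and 2 in CYP1B1-/- (median 0.70). Endothelial markers had 1 of 8 higher and 1 lower in WT (median -1.03), and 1 higher in AhR-/- (median 1.33) and in CYP1B1-/- (median 0.29). These counts stand beside 19%, 10.6% and 15.5% of all genes higher and 19.4%, 10.1% and 17.9% lower in WT, AhR-/- and CYP1B1-/-. The part of these cell types in the members' changes was not tested.

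6 of 14 intraflagellar transport genes were lower after HDM in WT, where 19.4% of all genes were. Ift88, a core IFT-B subunit, stood at 14.2, 20.9, 21.1 and 31.6 CPM in WT, 20.6, 20.2 and 23.9 in AhR-/- and 20.3, 24.7 and 24.3 in CYP1B1-/- at steady state. After HDM it stood at 8.61, 6.6, 10.2 and 8.33 CPM in WT, 15.7, 12.5, 10.5 and 10.96 in AhR-/- and 8.12, 10.4, 10.6 and 18.8 in CYP1B1-/-. All HDM libraries of WT lay below its steady-state libraries, and Ift88 fell by 1.37 (SE 0.27, adjusted p = 0.000323) on the log2 scale. Ift122, an IFT-A subunit, fell by 1.44 (SE 0.29, adjusted p = 0.000368), Ift172, a peripheral IFT-B subunit, by 0.95 (SE 0.20, adjusted p = 0.000491), Ift43 by 1.93 (SE 0.42, adjusted p = 0.00084) and Ift74 by 1.45 (SE 0.33, adjusted p = 0.00133).

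Ift122 and Ift172 were the members with the same direction and a passed test in all 3 genotypes, together with Tppp3, Tekt5 and Cfap97. Ift122 was at 16.6, 18.3, 24.6 and 34.4 CPM in WT, 23.4, 27.6 and 31.9 in AhR-/- and 19.6, 30.8 and 28.8 in CYP1B1-/- at steady state and at 9.37, 8.63, 8.22 and 8.27 CPM in WT, 6.38, 8.59, 8.19 and 12.2 in AhR-/- and 8.66, 8.93, 8.35 and 17.6 in CYP1B1-/- after HDM. Ift172 was at 22.02, 22.1, 24.4 and 31.2 CPM in WT, 26.1, 24.99 and 27.1 in AhR-/- and 27.4, 25.96 and 30.1 in CYP1B1-/- and at 11.7, 10.9, 14.6 and 14.3 CPM in WT, 11.97, 10.3, 10.5 and 12.7 in AhR-/- and 12.99, 11.5, 14.7 and 14.7 in CYP1B1-/-. In both genes each HDM library was below each steady-state library of its genotype. In AhR-/- Ift122 fell by 1.65 (SE 0.31, adjusted p = 0.00125) and Ift172 by 1.19 (SE 0.21, adjusted p = 0.00087), and in CYP1B1-/- by 1.26 (SE 0.30, adjusted p = 0.0021) and 1.04 (SE 0.21, adjusted p = 0.000448).

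6 of 28 tested Cfap genes fell in WT, where 19.4% of all genes were lower, among them Cfap36 by 1.46 (SE 0.30, adjusted p = 0.000518) and Cfap161 by 1.58 (SE 0.50, adjusted p = 0.0143) on the log2 scale. Spef2 fell by 1.51 (SE 0.39, adjusted p = 0.00355) and Ccdc17 by 1.30 (SE 0.39, adjusted p = 0.011). At steady state Ccdc17 stood at 10.4, 9.81, 12.8 and 19.4 CPM in WT, 9.76, 11.8 and 13.2 in AhR-/- and 4.54, 15.9 and 15.7 in CYP1B1-/-. Drc3 and Tekt2 also passed, at -1.46 and -1.60, and Rsph4a, a spoke head protein, at -1.37. Dnah7a was the only dynein heavy chain of 15 to pass, at -1.40 (SE 0.55, adjusted p = 0.0486), with overlapping libraries and at a level at or below the olfactory receptor percentile. Hydin stood at 2.92, 3.09, 2.71 and 3.73 CPM in WT, 2.4, 2.93 and 2.4 in AhR-/- and 3.26, 2.03 and 3.01 in CYP1B1-/- at steady state and did not pass, at -0.01 (SE 0.52, adjusted p = 0.988).

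Of the 4 dynein assembly factors 1 fell and 1 rose. Dnaaf5 stood at 10.3, 11.4, 10.7 and 16.3 CPM in WT, 11.3, 11.5 and 6.21 in AhR-/- and 29.8, 16.3 and 13.02 in CYP1B1-/- at steady state and at 5.43, 3.3, 6.24 and 5.38 CPM in WT, 4.37, 7.47, 5.46 and 4.77 in AhR-/- and 7.39, 7.2, 7.5 and 6.85 in CYP1B1-/- after HDM, and fell by 1.24 (SE 0.29, adjusted p = 0.00157) in WT. Dnaaf3 was the only member to pass the test upward in WT, on 3 to 42 counts in each WT HDM library and 4 to 19 in each at steady state. It stood at 0.239, 0.802, 0.474 and 0.874 CPM in WT at steady state and 1.88, 0.761, 4.41 and 2.05 after HDM, a difference of 1.92 (SE 0.62, adjusted p = 0.0169) with overlapping libraries. 16.5% of its exon length is overlapped by another transcript model, mainly on the other strand.

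In AhR-/-, 6 of 83 members were lower after HDM and 0 higher (7.23%, against 20.6% of all genes, of which 10.6% were higher and 10.1% lower). They were Ift172, Ift122, Tppp3, Cfap97, Tekt5 and Ift140, which fell by 1.02 (SE 0.35, adjusted p = 0.0402). Their libraries did not overlap between the states, which was so for 12 members below and 8 above, against 23.2% and 12.7% of all genes. The median of the 83 members was 0.20, and 53 were above 0. This median was -0.06 with a replicate block and 0.16 to 0.36 with 1 library left out. The 28 tested Cfap genes had a median of 0.61 and the 14 intraflagellar transport genes one of -0.14. Without steady state replicate 3 or 4 the calls were 2 members and 9.98% or 8.93% of all genes, without HDM replicate 1 or 2 they were 3 members and 12.6% or 18.5%, and without HDM replicate 4 they were 12 members and 23.7%. With a replicate block they were 3 and 12.4%.

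In CYP1B1-/-, 9 of 83 were lower and 1 was higher (12%, against 33.4% of all genes, of which 15.5% were higher and 17.9% lower). Here too Ddx3y was at 19.7 to 92.04 CPM in every steady-state library and at 0 in all 4 HDM libraries, and state and sex cannot be told apart. Besides the 5 shared with both other genotypes these were Dnaaf5 at -1.44, Cfap36 at -1.31, Ift88 at -0.93 and Ift43 at -1.38, and Dnaaf3 rose by 2.58 (SE 0.71, adjusted p = 0.00611) on the log2 scale, from 0.496, 0.254 and 0.648 to 2.71, 1.44, 3.12 and 3.69 CPM. The median was 0.25, and 52 members were above 0. Without HDM replicate 4 the median was -0.10, and with a replicate block it was -0.08. In WT the count of 22 was 14 without steady state replicate 4 and 14 without HDM replicate 3, where 34.4% and 32.3% of all genes were called.

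**Figure D4:**
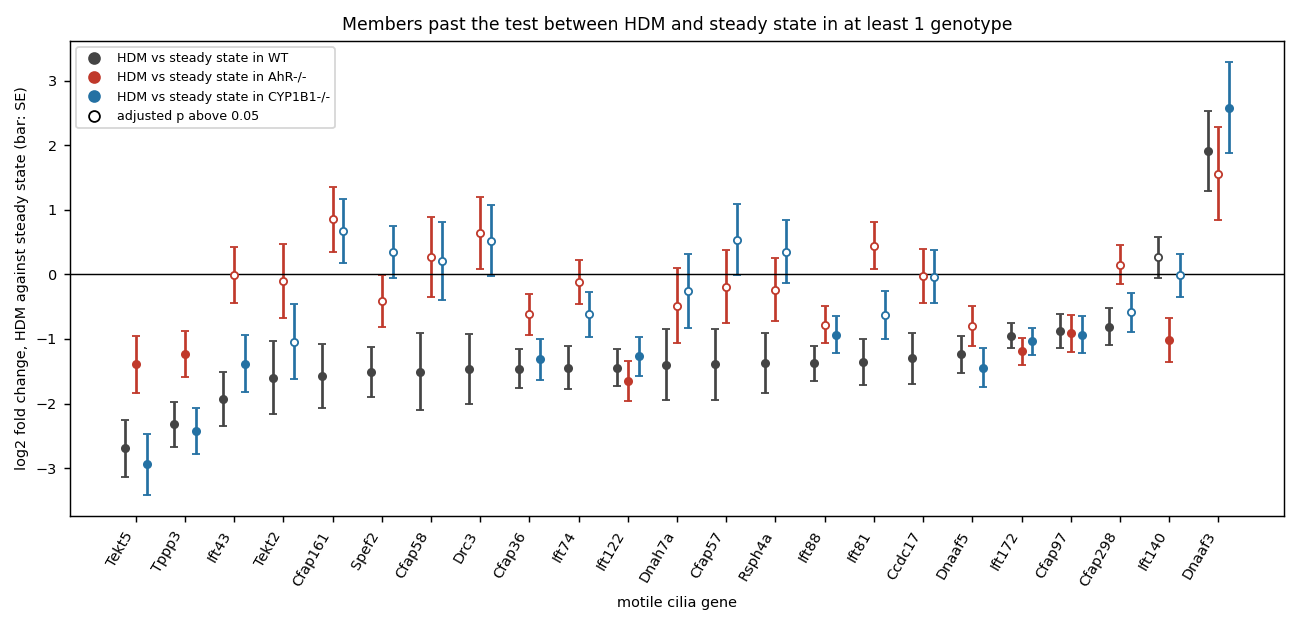
Log2 fold change between HDM and steady state, with its standard error, in WT, AhR-/- and CYP1B1-/- for the 23 motile cilia genes that passed the test in at least 1 genotype. Filled points have an adjusted p of at most 0.05. Tekt5, Tppp3, Ift122, Ift172 and Cfap97 lie below 0 and pass in all 3 genotypes, while Cfap161, Drc3 and Ift81 lie below 0 in WT and above 0 in AhR-/-.

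Whether the change with HDM differed between genotypes was tested with an interaction term. 0 of 83 members passed for AhR-/- and 0 for CYP1B1-/-, as did 0% and 0% of all genes. For AhR-/-, 26 members had an unadjusted p under 0.05 (31.3%, against 18.3% of all genes), 25 of them with a higher HDM change than in WT, and the median was 1.09 against 0.02. The lowest p were those of Ift81 at 1.81 (SE 0.52, unadjusted p = 0.00188, adjusted p = 0.149), Cfap161 at 2.43 (SE 0.71, unadjusted p = 0.00231, adjusted p = 0.149) and Cfap69 at 2.08 (SE 0.64, unadjusted p = 0.00347, adjusted p = 0.149). DESeq2 called 6 members beside 10.5% of all genes, limma voom 12 beside 30% and the likelihood ratio test 0 beside 1.33%, and with a replicate block it was 0 beside 0.018%.

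For CYP1B1-/- 11 members had an unadjusted p under 0.05, all higher (13.3%, against 2.3% of all genes), with a median of 0.83 against -0.02. Spef2 at 1.86 (SE 0.56, unadjusted p = 0.00309, adjusted p = 1), Cfap161 at 2.25 (SE 0.71, unadjusted p = 0.00413, adjusted p = 1) and Cfap53 at 1.94 (SE 0.65, unadjusted p = 0.00682, adjusted p = 1) had the lowest p. DESeq2, limma voom and the likelihood ratio test called 0 members. The interactions and the comparisons with WT share the WT libraries, so the 2 upward medians are not independent of each other.

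**Figure D5:**
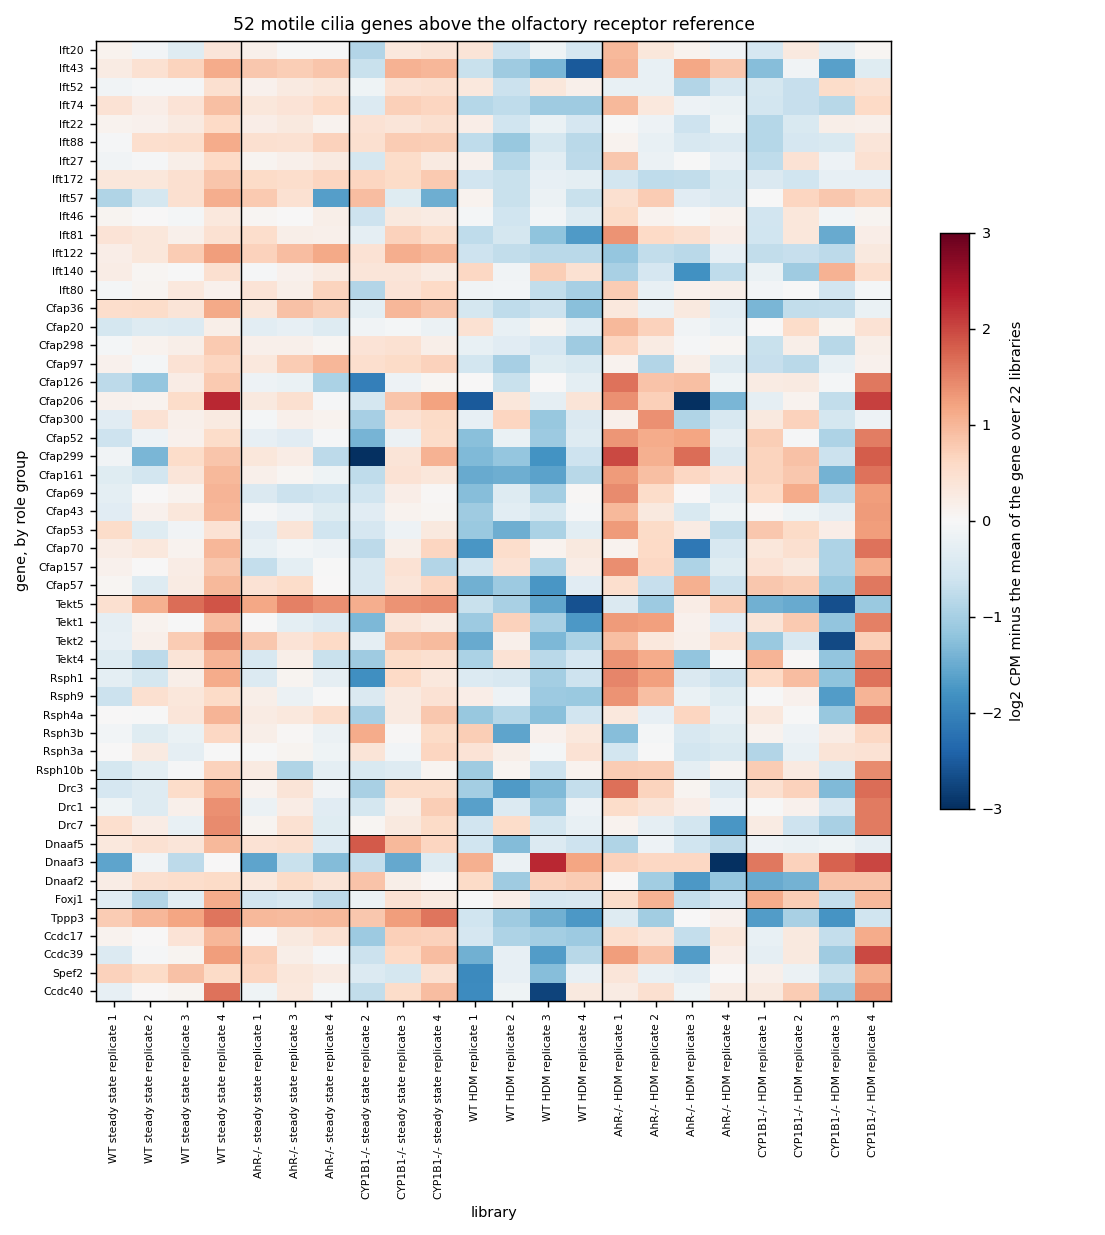
Log2 CPM of the 52 motile cilia genes above the olfactory receptor percentile in the 22 libraries, each as the difference from the mean of the gene, with the colour scale ending at -3 and 3. Lines part the groups and the role groups. Averaged over these genes, WT steady state replicate 4, CYP1B1-/- HDM replicate 4 and AhR-/- HDM replicate 1 are highest, and WT HDM replicate 3, CYP1B1-/- HDM replicate 3 and WT HDM replicate 1 are lowest.

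Other genes of motile cilia that the rule does not name, 50 in all, included the regulators Rfx2 and Rfx3, outer arm docking proteins and central apparatus proteins. In AhR-/- against WT after HDM, 6 of 46 tested were higher and 0 lower (median 1.08), where 9.22% of all genes were higher and 12.9% lower. The 6 ranged from 0 to 17 over 23 alternatives and were led by Enkur, Dnal1, Lrrc6 and Dynlrb2. In CYP1B1-/- against WT after HDM 0 passed (median 1.08), and at steady state 0 passed in either genotype (medians -0.27 and -0.27). Between HDM and steady state in WT, 8 of 48 were lower and 0 higher (median -0.83, 4 to 14 over 22 alternatives), where 19.4% of all genes were lower, led by Stk36, a kinase needed for the central apparatus, and Rfx2. The counts were 1 higher and 2 lower in AhR-/- (median 0.74) and 0 and 2 in CYP1B1-/- (median 0.46), where 10.1% and 17.9% of all genes were lower, and Stk36 and Rfx2 were lower in all 3 genotypes.

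The 33 primary cilia and basal body genes, which serve the non-motile cilium of many cells, gave 9 of 32 higher and 0 lower in AhR-/- against WT after HDM (median 0.47), led by Rpgrip1l, Wdr35, Kif3a and Bbs5, where 9.22% of all genes were higher and 12.9% lower. The 9 ranged from 0 to 14 over 23 alternatives. In CYP1B1-/- 0 passed (median 0.32), and at steady state 0 passed in either genotype (medians 0.01 and -0.08). Between the states, 13 of 33 were lower and 2 higher in WT (median -0.68), 3 and 1 in AhR-/- (median -0.16) and 8 and 2 in CYP1B1-/- (median -0.37), where 19.4%, 10.1% and 17.9% of all genes were lower. Over the alternatives the calls ranged from 9 to 20, 1 to 10 and 5 to 15. In AhR-/- and CYP1B1-/-, the medians of this list and of the 14 intraflagellar transport genes (-0.14 and -0.47) lay below 0 between the states, and those of the Cfap genes (0.61 and 0.47), the radial spoke genes (0.68 and 0.35) and the dynein heavy chains (0.12 and 0.25) above it. The 4 tektins had medians of 0.47 and -0.27 and the 4 assembly factors of -0.05 and 0.11.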

How the data were processed

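RNA-seq counts per gene of 22 libraries were deposited in 2 tables, 1 per state. The authors trimmed reads with bbduk, used GSNAP for alignment to the mm10 build and featureCounts 2.0.0 for counts over Ensembl genes, per their methods and processing notes; bcl2fastq was 2.19.1. The strand setting is not given in the sources used here. Protein-coding genes and exon lengths came from GENCODE M21 (GRCm38). Genes were filtered with filterByExpr (minimum count 10, total 15) and scaled by TMM, and edgeR 4.0.16 (R 4.3.3) quasi-likelihood tests with robust estimation were fitted to all genes, with Benjamini-Hochberg adjustment and a threshold of 0.05. Genotypes were compared within a table. States and interactions were compared over both tables, whose printed CPM share 1 set of TMM factors. Log2 CPM used a prior count of 1, SE is the fold change over the square root of F, and total counts are given in the report. Filters, normalisations, DESeq2 1.42.0, limma 3.58.1 voom, blocks and left-out libraries were alternatives. Scripts were tested on simulated data. The members, lists and rules were chosen with earlier results of these data known. Named were the 8 singly named genes, up to 10 called members of lowest p per direction and comparison (the 3 of lowest p where none was called), the highest and lowest member of each role group and up to 4 called genes of each other list, beside genes a count of 5 or fewer turned on, which were chosen after their values were seen. Nothing says that replicates came from separate animals, so p-values measure the spread between these libraries. No 2 libraries of the same group agreed within sampling noise, and pairs across groups were not compared in this way. Same-numbered libraries correlated between -0.48 and 0.68 after HDM and between -0.02 and 0.25 at steady state. Differently numbered ones ranged from -0.66 to 0.53 and from -0.28 to 0.25. The highest values after HDM (0.68, 0.63 and 0.57) were of same-numbered libraries. Over 0.1 lay 4 of 12 same-numbered and 18 of 36 other pairs after HDM, and 4 of 8 and 4 of 25 at steady state. Whether the numbers mark pairs is thus not settled. The main tests did not use them, and the block on them is an alternative.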

Additional observations from a re-analysis of the deposited data

Results flagged for a closer look

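Y-linked Ddx3y was at 67.3 CPM in AhR-/- HDM replicate 3 and 69.6 CPM in AhR-/- HDM replicate 4 and at most 0.0859 CPM in the other HDM libraries, and it is no motile cilia gene. Of 72 groups of 4 libraries (18 measures), 6 held a library whose gap to its nearest neighbour exceeded the 95% limit of Dixon for its share of the range of the group, where chance gives about 1 in 20. The measures overlap, as the regulators are Foxj1 and Mcidas, so the 72 are not independent trials and this rate is only a rough guide. WT steady state replicate 4 stood apart for the pooled Cfap level at 1.74 CPM per kilobase (the others reached 1.11), for the regulators at 0.810 CPM per kilobase, for Ccdc40 at 7.96 CPM and for Foxj1 at 3.41 CPM. AhR-/- HDM replicate 1 stood apart for intraflagellar transport at 4.11 CPM per kilobase (the others reached 2.89). CYP1B1-/- HDM replicate 2 stood apart for Mcidas at 3.17 CPM.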

How the results depend on the processing

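Of 1159 recomputed values of named members 1007 kept their direction and side of the threshold, 142 lost the threshold, 10 gained it and 0 reversed. Beside each count of members stands the share of all genes called in the same fit. The 10 members (22.1%) called in AhR-/- against WT after HDM were 18 (35.2%) with DESeq2, 17 (46.9%) with limma voom (median 1.07), 6 of 24 (30.3%) with at least 10 counts in every library, 0 (0%) without the AhR-/- libraries with Y-linked reads and 0 to 10 (0% to 29%) with 1 library left out. For HDM against steady state in AhR-/-, 6 (20.6%) became 13 (27.5%) with DESeq2, 14 (28.1%) with voom, 10 (23.6%) without the libraries with Y-linked reads, 10 (28.3%) without HDM libraries over 50% Gm10800, 15 (25.2%) with the olfactory receptor level as covariate and 2 to 12 (8.93% to 23.7%) with 1 library left out. In WT, 22 (38.4%) became 13 of 24 (55.4%) with at least 10 counts in every library and 14 to 26 (32.3% to 40.5%) with 1 left out. In CYP1B1-/-, 10 (33.4%) became 16 (40.7%) with voom, and the median was -0.34 with at least 10 counts in every library. The 0 calls of the AhR-/- interaction (0%) became 6 (10.5%) with DESeq2, 12 (30%) with voom, 7 (6.2%) when only the 4 groups were fitted, 3 (3%) without HDM libraries over 50% Gm10800 and 0 to 2 (0% to 6.14%) with 1 left out. With at least 10 counts in every library the interaction medians were 0.56 for AhR-/- and 0.29 for CYP1B1-/-. With the replicate number as a replicate block, AhR-/- against WT after HDM had 0 calls (0.00706%) and HDM against steady state in AhR-/- had 3 (12.4%), 17 (26.3%) in WT and 7 (22.2%) in CYP1B1-/-, and the medians of the last comparison and of that in AhR-/- were -0.08 and -0.06. The causes were not tested. The alternatives on Y-linked reads, Gm10800, the olfactory receptor covariate and predicted genes were chosen after seeing the data. A count of 3 corresponded to up to 1.36 CPM, which limits the members of low level.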
